A study of Mus musculus with 12 samples.

Results

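The 7 genes described here, Srebf2, Insig1, Hmgcs1, Idi1, Fdft1, Sqle and Cyp51, belong to the machinery with which a cell makes cholesterol and senses how much of it is present. They were taken by name from a table of 16670 genes, and all 7 were found. Their working name also speaks of uptake, but none of them (0 of 7) encodes a receptor that brings cholesterol into the cell, so uptake genes were counted separately. In these libraries 6 of the 7 differed between fat cells and the other cells of the depot: Insig1, Hmgcs1, Fdft1, Idi1 and Cyp51 were higher in mature adipocytes and Srebf2, which encodes the regulator of the others, was lower. For comparison, 28.7% of all genes tested were called higher in mature adipocytes, and 59.1% were called lower there. None of the 7 (0) passed the test between the genotype labels in either fraction.

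Female C57BL/6 mice, of an age that the labels do not give, were the source of 12 RNA-seq libraries made from subcutaneous fat of the groin (inguinal white adipose tissue). The groups were Kdm5c+/- mature adipocytes (MAT), wild-type (Kdm5c+/+) mature adipocytes, Kdm5c+/- stromal vascular fraction (SV) and wild-type stromal vascular fraction, with 3 libraries each, and each library came from the pooled tissue of 2 mice. Kdm5c is an X-linked gene that encodes a demethylase of histone H3 lysine 4. Collagenase-digested tissue was spun so that fat-laden adipocytes formed a floating layer, while progenitor, vascular and immune cells went into the stromal vascular pellet.

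Depth ran between 21836878 and 29434125 reads per library. Levels are given in CPM, a library's counts scaled to a common total, and 3 reads came to 0.102 to 0.137 CPM. The summed level of 7 adipocyte markers was 26058 to 36844 CPM in MAT and 444 to 1542 CPM in SV libraries, and all 7 markers had the higher mean in MAT. All 5 endothelial, 5 fibroblast progenitor, 4 pericyte and 4 listed macrophage markers had the higher mean in SV, so the markers bore out both fraction labels. Kdm5c itself stood at 158, 190.3 and 158 CPM in Kdm5c+/- MAT, against 179, 174 and 180.0 CPM in wild-type MAT, and at 194, 190.4 and 175 CPM in Kdm5c+/- SV, against 188, 185 and 180.1 CPM in wild-type SV. These levels overlapped between the genotype labels in both fractions and did not separate them (limma, adjusted p = 0.717 in MAT and 0.978 in SV). The Kdm5c level thus does not bear out the genotype labels, which are used as given. The removed part of Kdm5c is not described in them.

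Cholesterol is built from acetyl-CoA through mevalonate, isoprenoids, squalene and lanosterol. Srebf2 encodes SREBP2, a transcription factor held in the endoplasmic reticulum while sterols are plentiful and cleaved to enter the nucleus when they are scarce, where it activates the enzyme genes and its own gene. Insig1 encodes one of the proteins that hold the SREBP complex back, and it is itself a target of SREBP. Adipocytes are known to store a large part of the body's free cholesterol, much of it taken up from lipoproteins rather than made in the cell. The 5 enzymes act in this order: Hmgcs1 makes HMG-CoA, Idi1 interconverts the isoprenoid units, Fdft1 joins farnesyl units into squalene, Sqle oxidises squalene, and Cyp51 removes a methyl group from lanosterol.

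In the genome build GRCm38 (GENCODE M21), Srebf2 lies on the plus strand of chromosome 15 from 82147181 to 82205379 and Sqle on the same strand of chromosome 15 from 59315077 to 59331192. Hmgcs1 and Idi1 lie on the plus strand of chromosome 13, from 119690379 to 119708260 and from 8885501 to 8892451. Fdft1 lies on the minus strand of chromosome 14 from 63145150 to 63179578. On chromosome 5 lie Cyp51, on the minus strand from 4081145 to 4104746, and Insig1, on the plus strand from 28071363 to 28078662. All are protein-coding. Some reads cannot be placed with certainty: 30.7% of the 50-base windows in the longest Fdft1 transcript also occur in other annotated genes, namely Ctsb on the opposite strand and Gm6781. For Idi1 the share was 30.5% (Gm13502 and others), for Hmgcs1 13.6% (the antisense gene Gm48342), for Cyp51 3.17%, for Insig1 2.49%, and for Srebf2 and Sqle 0%. The libraries were strand-specific, but the sources used here do not give whether strand was used in counting.

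RefSeq promoters of GRCm38.p6, from 250 bases before to 50 bases after the annotated start, were available for Hmgcs1, Srebf2, Insig1, Idi1 and Cyp51. They were searched on both strands for TCACNCCAC, a sterol response element consensus to which SREBP binds, for CCAAT, the box of the factor NF-Y, and for GGGCGG, the core of an Sp1 site. SREBP is known to act together with NF-Y and Sp1. The windows of an enzyme, the regulator and the inhibitor are printed to show 1 gene of each role, with the matches to any of the searched motifs, on either strand, in capitals. They span chr13:119690101-119690400, chr15:82147019-82147318 and chr5:28071162-28071461, all on the plus strand.
Hmgcs1: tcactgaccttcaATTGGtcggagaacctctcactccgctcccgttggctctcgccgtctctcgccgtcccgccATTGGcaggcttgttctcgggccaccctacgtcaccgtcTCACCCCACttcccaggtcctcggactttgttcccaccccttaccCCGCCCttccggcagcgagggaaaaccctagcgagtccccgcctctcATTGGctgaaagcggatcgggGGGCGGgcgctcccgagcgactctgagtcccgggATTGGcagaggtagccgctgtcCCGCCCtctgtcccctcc
Srebf2: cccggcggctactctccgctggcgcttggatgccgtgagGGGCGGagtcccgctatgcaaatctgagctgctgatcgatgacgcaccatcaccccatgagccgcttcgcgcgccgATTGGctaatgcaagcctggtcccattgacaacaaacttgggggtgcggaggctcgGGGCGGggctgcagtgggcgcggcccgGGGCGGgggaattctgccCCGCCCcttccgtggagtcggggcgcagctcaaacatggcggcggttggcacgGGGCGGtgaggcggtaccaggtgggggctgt
Insig1: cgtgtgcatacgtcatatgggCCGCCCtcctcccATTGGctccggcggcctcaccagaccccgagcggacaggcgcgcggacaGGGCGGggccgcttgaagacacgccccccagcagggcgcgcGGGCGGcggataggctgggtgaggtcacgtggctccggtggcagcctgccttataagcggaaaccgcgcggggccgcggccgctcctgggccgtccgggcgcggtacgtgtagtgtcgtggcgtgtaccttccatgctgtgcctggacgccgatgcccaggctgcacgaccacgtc
The sterol response element was found in 1 of the 5 promoters, that of Hmgcs1, at position -137 (the annotated start is 0), and in 1.24% of 32851 promoters of the same length. A CCAAT box, in either orientation, was in 5 of 5, against 37.4% of all promoters. An Sp1 core was also in 5 of 5, against 35.7% of all promoters. The 5 windows had a GC content of 52.3% to 71.7%, and the median of all promoters was 52.7%. The searched motifs do not overlap one another in these windows. A match of letters is a description of the sequence and not a measured binding site, and the absence of a match says only that these letters are not in the window.

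Between the fractions, Srebf2 differed in the opposite direction from the 5 genes called higher in MAT. Its level was 58.9, 43.5 and 60.7 CPM in Kdm5c+/- MAT and 62.5, 59.1 and 69.7 CPM in wild-type MAT. In SV it was 162, 119.8 and 191 CPM in Kdm5c+/- and 176, 162 and 205 CPM in wild type. All 6 MAT libraries lay below all 6 SV libraries. The means were 59.1 ± 8.62 CPM in MAT and 169 ± 29.5 CPM in SV (SD, n = 6 each), and the difference on the log2(CPM + 1) scale, MAT minus SV, was -1.50 ± 0.12 (SE, limma, adjusted p = 2.34e-07).

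Insig1 had the largest difference of the 7 and the widest spread in MAT. It stood at 425, 164 and 252 CPM in Kdm5c+/- MAT and at 369.7, 127 and 353 CPM in wild-type MAT. In SV it was at 56.6, 38.8 and 53.8 CPM in Kdm5c+/- and at 63.6, 44.4 and 66.8 CPM in wild type. Every MAT library was above every SV library, although MAT libraries differed among themselves by up to 3.34-fold and SV libraries by up to 1.72-fold. The mean was 282 ± 120.0 CPM in MAT and 54.0 ± 10.8 CPM in SV (n = 6 each), a log2 difference of 2.26 ± 0.29 (adjusted p = 1.65e-05).

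Of the enzymes, Hmgcs1, at the entry of the mevalonate pathway, had the highest level per kb of exon in both fractions. It was at 350.4, 224 and 348 CPM in Kdm5c+/- MAT and at 323, 291 and 469 CPM in wild-type MAT. In SV its level was 82.7, 51.3 and 92.5 CPM in Kdm5c+/- and 81.8, 66.8 and 117 CPM in wild type. The fractions did not overlap, with means of 334 ± 80.9 CPM in MAT and 82.0 ± 22.4 CPM in SV (n = 6 each). The log2 difference was 2.02 ± 0.20 (adjusted p = 1.33e-06).

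Idi1 had the lowest level per kb of the 7 in both fractions. Its level was 7.12, 6.28 and 8.46 CPM in Kdm5c+/- MAT and 9.18, 6.49 and 9.12 CPM in wild-type MAT. In SV it came to 2.88, 1.65 and 3.74 CPM in Kdm5c+/- and 2.01, 2.20 and 3.74 CPM in wild type. All MAT libraries were above all SV libraries, and the log2 difference was 1.27 ± 0.17 (adjusted p = 1.58e-05), a value that the pseudocount of 1 CPM makes smaller at this level.

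Fdft1, squalene synthase, had 80.9, 39.0 and 82.3 CPM in Kdm5c+/- MAT and 91.1, 67.2 and 84.2 CPM in wild-type MAT. In Kdm5c+/- SV it had 22.2, 11.2 and 19.9 CPM, and in wild-type SV 21.6, 18.1 and 30.5 CPM. The lowest MAT library, Kdm5c+/- number 2, was still above the highest SV library. Means of 74.1 ± 18.9 CPM in MAT and 20.6 ± 6.27 CPM in SV (n = 6 each) gave a log2 difference of 1.80 ± 0.22 (adjusted p = 1.04e-05).

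Sqle and Cyp51 had the smallest differences of the 7. Sqle, squalene epoxidase and a rate-limiting enzyme of the pathway, was at 35.2, 20.1 and 36.1 CPM in Kdm5c+/- MAT and at 48.4, 25.4 and 53.4 CPM in wild-type MAT. In SV it was at 25.7, 14.2 and 30.0 CPM in Kdm5c+/- and at 22.0, 18.4 and 36.5 CPM in wild type. The fractions overlapped, and the log2 difference of 0.54 ± 0.26 (95% interval -0.03 to 1.11) did not pass (adjusted p = 0.0672). With the pool as a block, which sets each MAT library against the SV library of the same number and genotype, the difference was the same and passed (SE 0.10, adjusted p = 0.000720). It also passed without Kdm5c+/- MAT number 2, wild-type MAT number 2, Kdm5c+/- SV number 3 or wild-type SV number 3 (0.68, 0.71, 0.65 and 0.68, adjusted p = 0.0186 to 0.0434).

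Cyp51, lanosterol demethylase, was at 65.5, 37.2 and 40.8 CPM in Kdm5c+/- MAT and at 53.8, 23.3 and 53.2 CPM in wild-type MAT. In SV its level was 28.0, 15.5 and 34.2 CPM in Kdm5c+/- and 29.8, 23.6 and 39.8 CPM in wild type. Here too the fractions overlapped, through wild-type MAT number 2 and Kdm5c+/- MAT number 2. The log2 difference of 0.65 ± 0.26 passed (95% interval 0.07 to 1.22, adjusted p = 0.0354). It did not pass without Kdm5c+/- MAT number 1 (0.52), wild-type MAT number 1 or 3 (0.55 each), Kdm5c+/- SV number 2 (0.49) or wild-type SV number 1 or 2 (0.64 and 0.56), with adjusted p of 0.0599 to 0.0886. In the wild-type libraries alone it was 0.41 (adjusted p = 0.299).

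**Figure D1:**
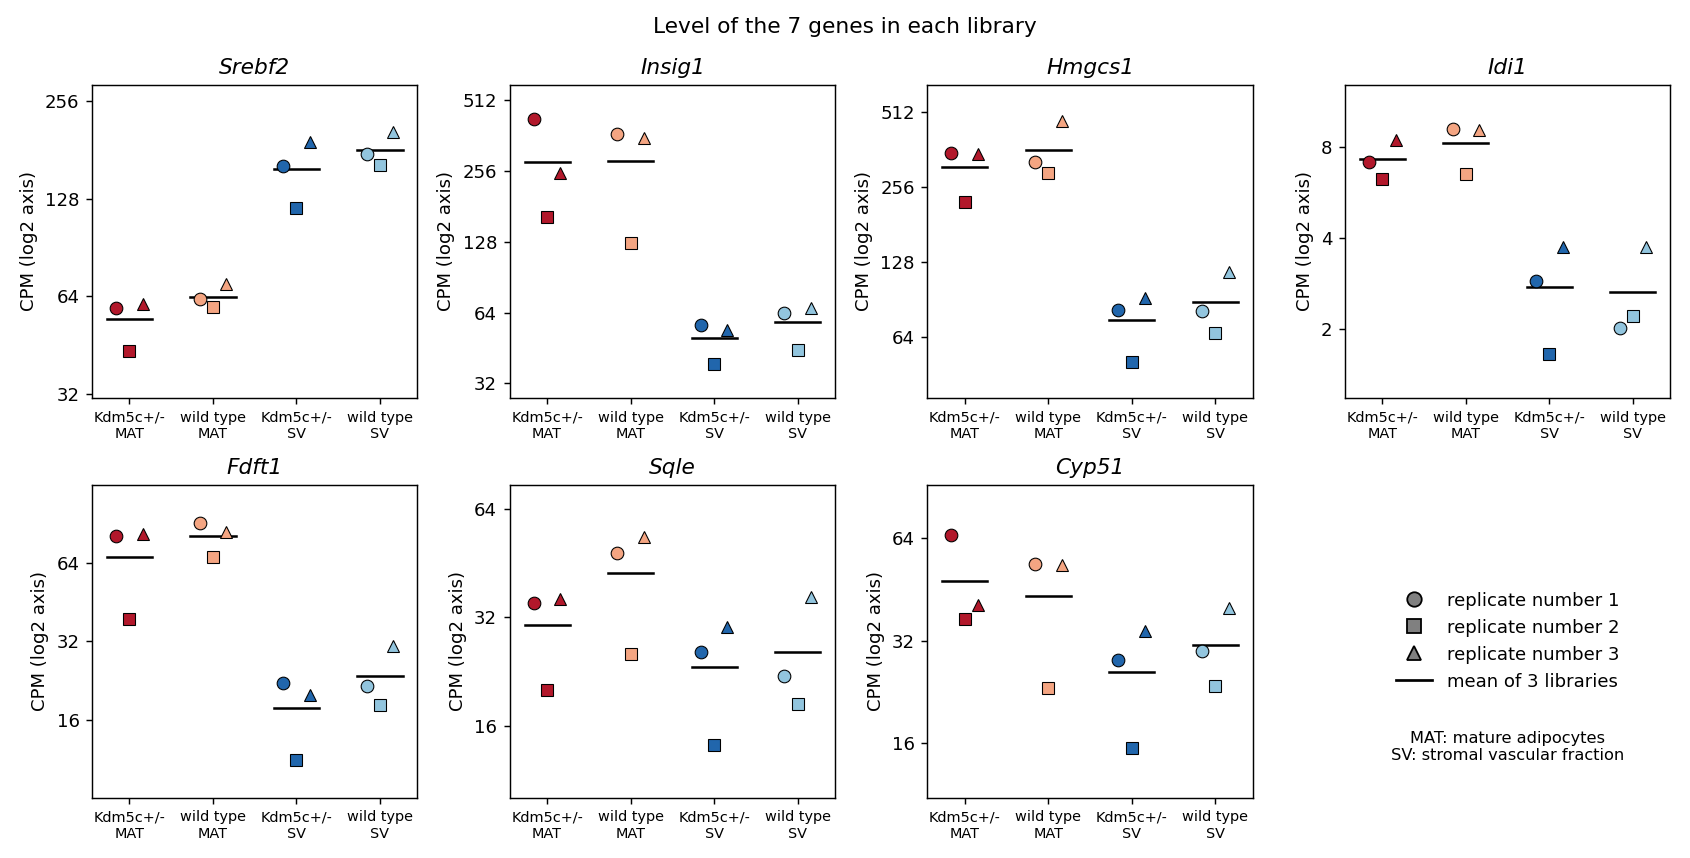
Level of each of the 7 genes in CPM, on a log2 axis, in the 12 libraries by group, with a bar at the mean of 3 libraries and a marker shape for the replicate number. Srebf2 is lower in MAT than in SV and Insig1, Hmgcs1, Idi1 and Fdft1 are higher without overlap. The squares (number 2) are the lowest symbol in 27 of the 28 groups of 3.

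In all, 5 of the 7 genes were called higher in MAT and 1 lower, in an experiment in which 28.7% of 14193 genes tested were higher in MAT and 59.1% higher in SV. The groups of 6 did not overlap for 5 of the 7, and for 74.6% of all genes tested. The median log2 difference of the 7 was 1.27, against -0.45 for all genes. That reference point depends on the scaling. The median of all genes, -0.45 with CPM, was -0.09 with median-of-ratios, 0.11 with quantile scaling, -0.0075 with edgeR and -0.09 with DESeq2. With CPM, 4072 genes were called higher in MAT and 8394 higher in SV. The corresponding counts with edgeR were 6063 and 6145, with DESeq2 5768 and 6530, with quantile scaling 6678 and 5542, and with median-of-ratios 5721 and 6550. The 7 genes kept their directions under each. Relative to the median of all genes, and over the 5 scalings, Srebf2 was at -1.31 to -1.02, Insig1 at 2.39 to 2.88, Hmgcs1 at 2.12 to 2.51 and Fdft1 at 2.16 to 2.34. On the same measure Idi1 was at 1.66 to 2.19, Cyp51 at 0.96 to 1.17 and Sqle at 0.89 to 1.04. Sqle passed under each of the other 4 scalings, so that 7 of 7 were called there. In bulk RNA, a different number of cells of a type and a different amount of RNA per cell cannot be told apart.

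Levels of different genes can be set beside each other only per length, here as CPM per kb of the merged exons. In MAT the order was Insig1 (91.1 ± 38.8), Hmgcs1 (72.8 ± 17.6), Fdft1 (17.5 ± 4.47), Cyp51 (10.3 ± 3.38), Srebf2 (8.22 ± 1.20), Sqle (6.57 ± 2.31) and Idi1 (2.22 ± 0.373; SD, n = 6). Only Hmgcs1 and Fdft1, and Sqle and Idi1, were neighbours whose ranges did not overlap. In SV the order was Srebf2 (23.6 ± 4.11), Hmgcs1 (17.9 ± 4.88), Insig1 (17.5 ± 3.50), Cyp51 (6.45 ± 1.91), Fdft1 (4.87 ± 1.48), Sqle (4.41 ± 1.46) and Idi1 (0.772 ± 0.256). There the ranges of neighbours were apart only between Insig1 and Cyp51 and between Sqle and Idi1. By this length the regulator ranked above the enzymes in SV and below 3 of them in MAT. The order depends on the length used. Merged exons came to 5546 bases for Sqle and 7184 for Srebf2, while their longest coding transcripts have 2758 and 5077 bases.

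The rest of the pathway gives the setting. Of 14 other enzymes of cholesterol synthesis counted here, 14 were higher in MAT and 0 lower, with a median of 1.25. The smallest p among those higher were for Acat2, which makes acetoacetyl-CoA (2.78 ± 0.17), Pmvk, phosphomevalonate kinase (2.37 ± 0.16), and Lss, which closes lanosterol's rings (2.11 ± 0.17). These counts held under the other scalings.

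**Figure D2:**
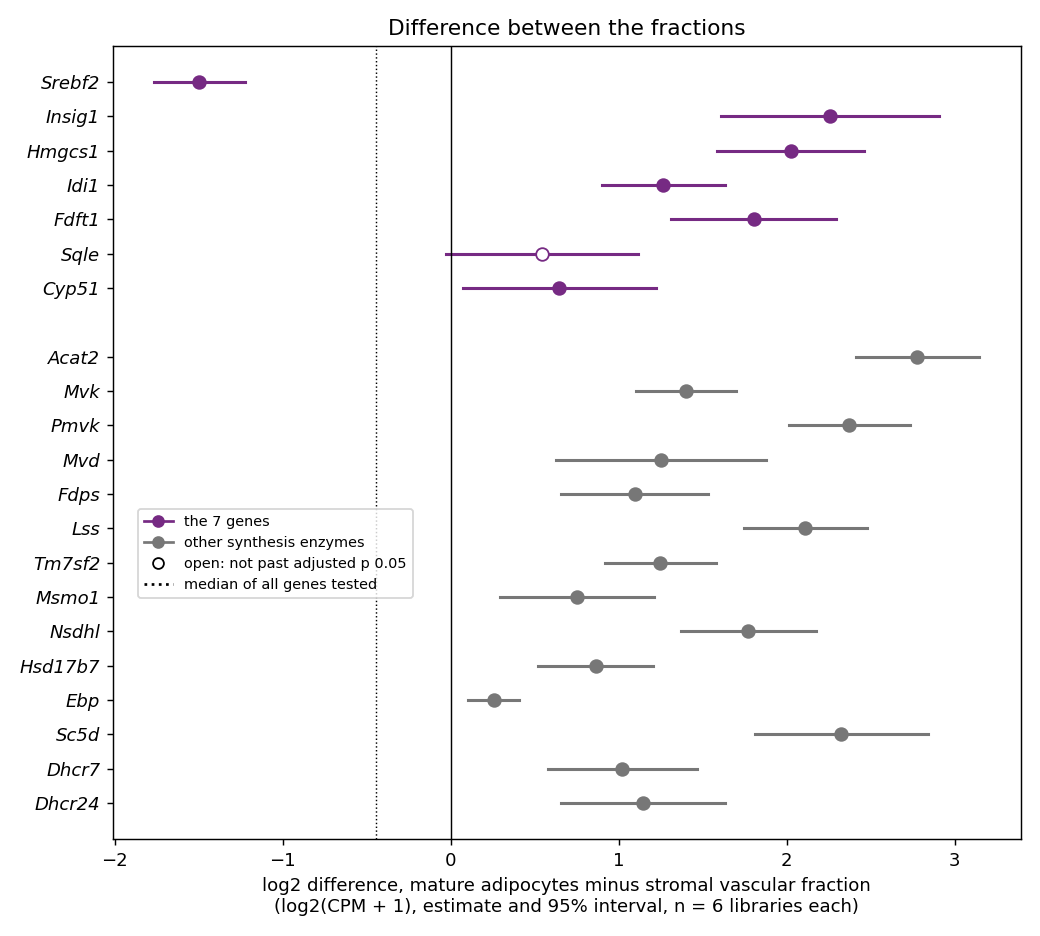
Log2 difference between the fractions (MAT minus SV, log2(CPM + 1), estimate and 95% interval, 6 libraries each) for the 7 genes and 14 other synthesis enzymes, with a dotted line at the median of all genes. Of the genes drawn, Srebf2 alone lies left of 0, and Sqle, drawn open, is the one that did not pass.

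For the lists in this paragraph, the shares of all genes tested with CPM were 28.7% called higher in MAT and 59.1% called lower. Of 8 other genes that regulate SREBP, 2 were higher in MAT and 4 lower. Higher were Srebf1, the sister gene that drives fatty acid synthesis (2.01 ± 0.21), and Insig2, the paralog of Insig1 (0.79 ± 0.06). Lower were Rnf139 (-0.51 ± 0.04) and the proteases that cleave SREBP, Mbtps1 (-0.57 ± 0.05) and Mbtps2 (-0.51 ± 0.05), and also Scap, the SREBP escort (-0.40 ± 0.05). The balance of this list depended on the scaling. Under each of the other scalings 4 genes were called higher, against 3 lower with median-of-ratios, 2 with quantile scaling, 0 with edgeR and 3 with DESeq2. Scap was at 0.07 with edgeR, and the list's median, -0.22 with CPM, was 0.15 to 0.25 with the other scalings. Of 8 uptake and trafficking genes, 2 were higher in MAT, the lysosomal cholesterol carrier Npc2 (1.30 ± 0.07) and the lipoprotein receptor Vldlr (1.07 ± 0.19). Another 6 were lower, led by Mylip, which marks lipoprotein receptors for breakdown (-3.23 ± 0.15), the HDL receptor Scarb1 (-2.64 ± 0.14) and the lysosomal lipase Lipa (-1.18 ± 0.06). Under the other scalings 4 to 6 were called lower. Of 7 efflux and storage genes, 3 were higher in MAT: the sterol-sensing receptor Nr1h3 (1.12 ± 0.05), the lipoprotein gene Apoe (0.87 ± 0.09) and the transporter Abca1 (0.92 ± 0.10). Another 3 were lower, Soat1, which esterifies cholesterol (-2.41 ± 0.10), Nr1h2 (-0.73 ± 0.06) and Abcg1 (-0.38 ± 0.15, at 0.00 to 0.08 and not called under the other scalings).

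Between the genotype labels, no difference was detected for any of the 7 genes in MAT. Every gene's Kdm5c+/- and wild-type ranges overlapped, where 22.0% of 11913 genes tested had ranges that did not. Log2 differences, Kdm5c+/- minus wild type, were -0.24 ± 0.14 for Srebf2, 0.03 ± 0.50 for Insig1, -0.23 ± 0.24 for Hmgcs1, -0.15 ± 0.17 for Idi1, -0.32 ± 0.29 for Fdft1, -0.44 ± 0.33 for Sqle and 0.19 ± 0.36 for Cyp51 (n = 3 each, limma). Adjusted p was 0.443 to 0.985, and 0 of the 7 had an unadjusted p under 0.05. The limma fit called 0 of all genes tested (0.00%), with 1737 at an unadjusted p under 0.05. On the recovered reads edgeR called 0 genes and DESeq2 250, none (0) of them among the 7. The intervals were wide: for Srebf2 the 95% interval was -0.57 to 0.09 and for Insig1 -1.15 to 1.21. Means behind them were, for Srebf2, 54.4 ± 9.49 CPM in Kdm5c+/- and 63.8 ± 5.40 CPM in wild type, and for Sqle 30.5 ± 8.98 CPM in Kdm5c+/- and 42.4 ± 15.0 CPM in wild type.

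Several marker sums did not overlap between the labels in MAT. Adipocyte markers came to 28430 to 36844 CPM in Kdm5c+/- and 26058 to 26565 CPM in wild type, although 2 of the 7 were lower in Kdm5c+/-. Rn45s, the ribosomal RNA precursor, came to 4813 to 7692 CPM in Kdm5c+/- and 3794 to 4386 CPM in wild type. The summed endothelial markers stood at 93.7 to 169 CPM in Kdm5c+/- and 212 to 271 CPM in wild type, with 5 of 5 lower in Kdm5c+/- and none at 0. Progenitor markers came to 50.3 to 58.9 CPM in Kdm5c+/- and 65.7 to 132 CPM in wild type (5 of 5 lower), and pericyte markers to 23.5 to 53.0 CPM in Kdm5c+/- and 68.8 to 90.8 CPM in wild type (4 of 4 lower). Their part in the values of the 7 genes was not tested.

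In SV, 0 of the 7 genes passed as well. Ranges overlapped for all 7 genes, while they did not for 13.5% of 13792 genes tested. The log2 differences were -0.22 ± 0.18 for Srebf2, -0.22 ± 0.20 for Insig1, -0.23 ± 0.28 for Hmgcs1, 0.03 ± 0.27 for Idi1, -0.40 ± 0.29 for Fdft1, -0.14 ± 0.34 for Sqle and -0.29 ± 0.31 for Cyp51 (n = 3 each). Adjusted p was 0.744 to 0.988, and 0 of the 7 had an unadjusted p under 0.05. Of all genes, limma called 1 (0.00725%), with 1043 at an unadjusted p under 0.05. There edgeR called 1 gene and DESeq2 53, with 0 of the 7 in either. For Hmgcs1 the means were 75.5 ± 21.5 CPM in Kdm5c+/- and 88.6 ± 25.8 CPM in wild type, and for Fdft1 17.8 ± 5.78 CPM in Kdm5c+/- and 23.4 ± 6.39 CPM in wild type. Summed endothelial markers came to 4493 to 6001 CPM in Kdm5c+/- SV and 5745 to 6448 CPM in wild-type SV (5 of 5 lower), and pericyte markers to 1756 to 2588 CPM in Kdm5c+/- SV and 2495 to 2985 CPM in wild-type SV (4 of 4 lower). Other lists went the other way. Macrophage markers came to 1022 to 1422 CPM in Kdm5c+/- SV and 940 to 1024 CPM in wild-type SV (0 of 4 lower). Schwann cell and mammary epithelium markers also had 0 of 4 lower each, adipocyte markers 1 of 7 and progenitor markers 3 of 5. The ribosomal RNA precursor Rn45s was at 18620, 19532 and 8985 CPM in Kdm5c+/- SV, against 6733, 6554 and 6676 CPM in wild-type SV. The part of any of these in the values of the 7 genes was not tested.

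Whether the genotype difference itself differed between the fractions was tested with an interaction term. Subtracting the SV difference from the MAT difference gave -0.02 ± 0.24 for Srebf2, 0.25 ± 0.59 for Insig1, 0.0044 ± 0.40 for Hmgcs1, -0.19 ± 0.33 for Idi1, 0.08 ± 0.45 for Fdft1, -0.30 ± 0.52 for Sqle and 0.48 ± 0.52 for Cyp51, with adjusted p of 0.819 to 0.999 over the 7 and 0 called. The limma fit called 0 of 14193 genes (0.00%; 1267 with an unadjusted p under 0.05), edgeR 0 and DESeq2 65, none (0) of them among the 7.

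No gene of the 4 pathway lists was called between the labels by limma (0 in MAT and 0 in SV). In MAT the smallest p among the enzymes were for Ebp, the sterol isomerase (0.33 ± 0.08, adjusted p = 0.273), and Hsd17b7 (-0.52 ± 0.18, adjusted p = 0.300). Among the other lists Nr1h3 was at 0.38 ± 0.08 (adjusted p = 0.273), the one list gene that DESeq2 called. Npc2 was at 0.29 ± 0.12 and Stard4, a sterol carrier, at -0.82 ± 0.40. In SV the smallest p of the uptake and the efflux lists were for Npc2 (0.18 ± 0.08), Vldlr (0.63 ± 0.29), Nr1h2 (-0.15 ± 0.08) and Abcg1 (-0.39 ± 0.20), with adjusted p of 0.653 to 0.668. The enzymes Mvd and Tm7sf2 were at -0.32 ± 0.17 and 0.22 ± 0.15 there, and the regulators Srebf1 and Scap at -0.23 ± 0.16 and -0.10 ± 0.08.

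**Figure D3:**
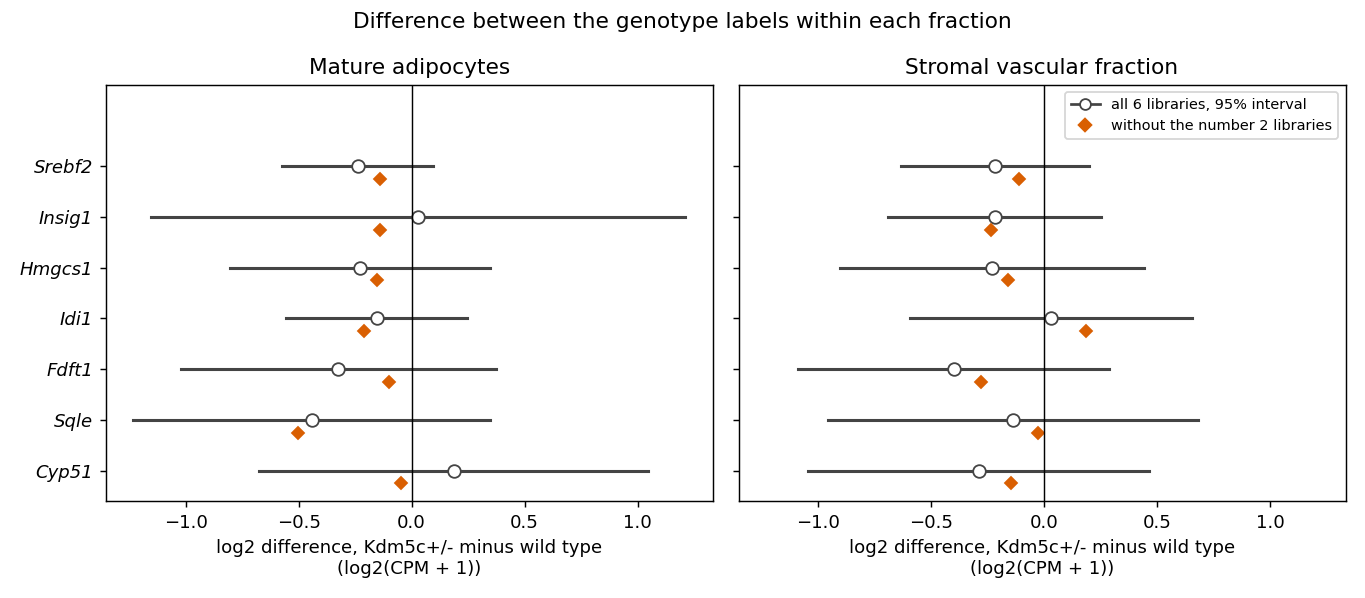
Log2 difference between the genotype labels (Kdm5c+/- minus wild type, log2(CPM + 1)) of the 7 genes in MAT, left, and SV, right. Circles with 95% intervals use 6 libraries, every interval spans 0, and diamonds leave out both number 2 libraries.

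The 7 genes were low in the same libraries. In 27 of the 28 sets formed by 7 genes and 4 groups, the library numbered 2 was the lowest of its 3, the exception being Idi1 in wild-type SV. For 6 of the 7 genes it was the lowest in all 4 groups, as it was for 227 of 14193 genes (1.60%). This pattern was picked out after the values were seen and is given without a test. Over all genes, number 2 was the lowest in 33.6% of the sets.

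The shortfall can be given as a share. In Kdm5c+/- MAT the level in number 2, as a share of the mean of numbers 1 and 3, ran from 47.8% for Fdft1 to 80.7% for Idi1 with a median of 64.1%, where the median of all genes was 94.0%. In wild-type MAT it ran from 35.2% for Insig1 to 89.5% for Srebf2 (median 70.9%, all genes 104%). In Kdm5c+/- SV the share was 49.8% for Idi1 to 70.3% for Insig1 (median 53.4%, all genes 99.7%), and in wild-type SV 62.9% for Sqle to 85.1% for Srebf2 (median 68.0%, all genes 101%). Of the 7, Srebf2 fell short by the least in both wild-type groups.

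Among the 6 SV libraries, Kdm5c+/- number 2 was the lowest and wild-type number 3 the highest for all 7 genes. In MAT, Kdm5c+/- number 2 was the lowest for 5 genes and wild-type number 2 for the other 2, Cyp51 and Insig1. MAT and SV libraries of one number and genotype deviated together across genes (r = 0.169 to 0.278) and are taken to be one pool, which the labels do not state. On that reading, the 4 groups stand for at most 2 number 2 pools. Between the genotypes, the deviations of same-numbered libraries correlated at r = -0.281 to 0.341, and numbers were not used to pair the genotypes in the main fits. The labels do not say whether libraries of one number share a batch. By read depth the number 2 libraries were not alike: Kdm5c+/- SV number 2 had the fewest reads of all, 21836878, and wild-type MAT number 2 the most, 29434125.

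Without the number 2 libraries of all 4 groups, 7 of 7 genes were called between the fractions. Sqle was at 0.58 ± 0.15 (limma, adjusted p = 0.00650) and Cyp51 at 0.67 ± 0.16 (adjusted p = 0.00549). This alternative was added after seeing the data. Leaving out libraries picked for low levels of these genes narrows the spread by itself. Between the labels, 0 of 7 were called without the number 2 libraries in either fraction. In MAT, Cyp51 then stood at -0.05 and Insig1 at -0.14, against 0.19 and 0.03 with all 6 libraries, and Sqle stood at -0.50 ± 0.09 (adjusted p = 0.520). Cyp51 and Insig1 were also negative without Kdm5c+/- MAT number 1 (-0.06 and -0.33) or without wild-type MAT number 2 (-0.20 and -0.47), and positive without Kdm5c+/- MAT number 2 (0.34 and 0.36). In SV, without both number 2 libraries, Fdft1 was at -0.28 and Srebf2 at -0.11.

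**Figure D4:**
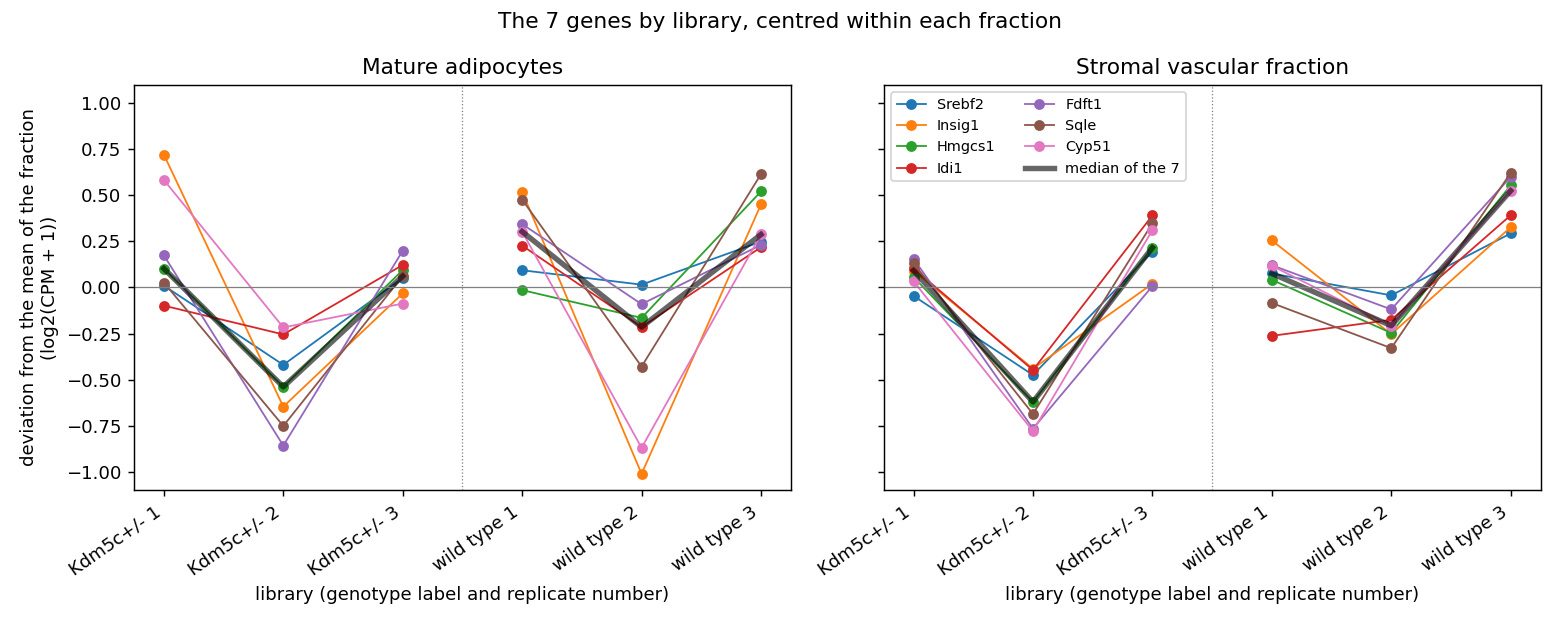
Deviation of each gene from its mean over the 6 libraries of a fraction (log2(CPM + 1)), by library, with a thick line at the median of the 7. Number 2 libraries lie below numbers 1 and 3 of their group for the median of the 7 in both fractions, and wild-type number 3 is at the top in SV.

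Other markers were compared across the same libraries. Of all genes, 340 of 14193 (2.40%) were highest in number 2 in all 4 groups. So were the summed skeletal muscle markers (3 of 3 found), counted as a sum and not marker by marker. They came to 48.2 CPM against 26.2 and 31.3 CPM in numbers 1 and 3 of Kdm5c+/- MAT, and to 88.9 CPM against 30.9 and 49.0 CPM in wild-type MAT. In Kdm5c+/- SV they came to 6.96 CPM in number 2 against 1.42 and 1.56 CPM, and in wild-type SV to 6.06 CPM against 1.65 and 1.89 CPM. Wild-type MAT number 2 also had the highest progenitor (132 CPM) and macrophage (47.9 CPM) sums in MAT. Kdm5c+/- SV number 2, the lowest SV library for all 7 genes, had the highest macrophage (1422 CPM), mammary epithelium (316 CPM) and Schwann cell (439 CPM) sums in SV. In both fractions, Kdm5c+/- number 2 also had the highest adipocyte sum (36844 CPM in MAT, 1542 CPM in SV) and the lowest endothelial (93.7 and 4493 CPM) and pericyte (23.5 and 1756 CPM) sums. The ribosomal RNA precursor Rn45s was highest there too, at 7692 CPM in MAT and 19532 CPM in SV, or 158% and 142% of the mean of Kdm5c+/- numbers 1 and 3. Wild-type number 2 went the other way in part. It had the highest pericyte sum of each fraction (90.8 CPM in MAT, 2985 CPM in SV). In SV it also had the lowest adipocyte (444 CPM) and the highest endothelial (6448 CPM) sum. Its Rn45s was at 112% of the mean of wild-type numbers 1 and 3 in MAT and at 97.7% in SV. The part of any of these in the levels of the 7 genes was not tested.

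Other pathway genes were counted in the same way. Of the 14 other enzymes, 9 were lowest in number 2 in all 4 groups, and 49 of their 56 sets had number 2 lowest. Of 8 other SREBP regulators 1 did so, Erlin2, named after its values were seen. Of the 8 uptake genes 0 did so, and of 7 efflux and storage genes 0.

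The genes whose levels followed the 7 most closely were sought among 14186 others, by the root mean square difference over the 12 libraries from the median pattern of the 7, each gene being centred within its fraction. The nearest was Msmo1, a sterol methyl oxidase (0.141), followed by B3gnt8, a glycosyltransferase (0.155), Mtss1, an actin and membrane binding protein (0.158), Fdps, farnesyl diphosphate synthase (0.161), Arhgap24 (0.161), and Dhcr7, which makes the last reduction to cholesterol (0.168). B3gnt8 was at only 0.52 to 1.49 CPM in MAT, a level at which the pseudocount of 1 CPM makes its differences smaller. The median of all genes was 0.363, and a gene that did not vary would have stood at 0.328. Of the 6, 3 are enzymes of the pathway. Msmo1 was at 46.0, 22.1 and 35.5 CPM in Kdm5c+/- MAT and 41.9, 28.3 and 49.0 CPM in wild-type MAT. Its SV levels were 19.4, 14.8 and 23.2 CPM in Kdm5c+/- and 19.6, 19.4 and 32.3 CPM in wild type.

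Each of the 7 was also set against the median of the other 6. Hmgcs1 was closest to it (0.137), followed by Srebf2 (0.178), Fdft1 (0.185), Sqle (0.189) and Idi1 (0.193). Cyp51 (0.286) and Insig1 (0.346) followed the common pattern least, and these are the genes with the widest spread in MAT, 2.82-fold and 3.34-fold from the lowest to the highest library. Srebf2, which differed from the enzymes in direction between the fractions, was thus near them in its pattern over libraries within a fraction. These differences are descriptions over 12 libraries that share pools and scaling.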

How the data were processed

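RNA of 12 libraries was measured by strand-specific sequencing (NuGEN Universal plus mRNA-Seq, per the labels' protocols). The tools named, per the submitters' processing notes, are edgeR 3.26.8 and STAR 2.7.2a, with GRCm38 as the build. Not given in the sources used here is which program counted the reads, with what strand setting and gene models. The authors deposited CPM per gene, counts scaled to the same total in every library over 16670 genes, all above 0.1 CPM in at least 3 libraries. Dividing by each library's smallest step recovered whole reads for 100% of values (tolerance 0.05 read), so that totals per library were known.

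From the CPM, log2(CPM + 1) was fitted with limma 3.58.1 (trend and robust, R 4.3.3) over genes that reached 1 CPM in 3 or more of the libraries in the fit. Tests were two-sided, with Benjamini-Hochberg adjustment over all genes tested and a threshold of 0.05. All 12 libraries entered the fraction and interaction fits, and 6 each genotype fit. These main fits did not pair the MAT and SV libraries of a pool. With the pool as a block, 7 of 7 genes were called between the fractions. On the recovered reads, edgeR 4.0.16 (quasi-likelihood) and DESeq2 1.42.0 were alternatives, beside other scalings, pseudocounts, filters and left-out libraries. The fit was also run on simulated data with the same spread setting for all genes and no shared pools. Such a run does not give the error rates in these libraries. Promoters came from RefSeq GRCm38.p6 and gene positions from GENCODE M21.

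The 7 genes, the pathway and marker lists and the tests were chosen with earlier results of these data known. Some genes of the pathway lists are not reported here and enter no count of a list. All 7 genes are named in each comparison; of a list, up to 3 called genes per direction with the smallest p are named, and where none was called, some of the 2 with the smallest p. Libraries of 1 number and genotype were taken as pairs across the fractions because, across genes, their deviations from the group means correlated in all 6 pairs (r = 0.169 to 0.278); the labels do not state it. Between genotypes, same-numbered libraries did not do so in all pairs (r = -0.281 to 0.341), though number 1 was at 0.341 in MAT and 0.184 in SV. Kdm5c+/- SV number 2 and wild-type SV number 3, which differ in genotype and number, correlated at 0.390. An r of this size does not by itself show a shared pool. The labels give pooled tissue of 2 mice per library and do not say that pools of a group came from different mice, so p-values measure the spread between these samples.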

Additional observations from a re-analysis of the deposited data

How the results depend on the processing

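Between the fractions, 6 of 7 genes were called. The count was 7 under median-of-ratios and quantile scaling, with edgeR, with DESeq2 and with the pool as a replicate block. It was also 7 without the number 2 libraries, which were picked after their values were seen. In wild-type libraries alone the count was 5, in Kdm5c+/- libraries alone 6, and 5 to 7 when each library was left out in turn. Only Sqle and Cyp51 crossed the threshold, and no direction changed in that comparison. Between the genotype labels and for the interaction, 0 of 7 were called under all alternatives run, the replicate block included (0). That block was the pool for the interaction. In the genotype fits it set Kdm5c+/- against wild type of the same number, a pairing that the labels do not give. In all, DESeq2 called 250, 53 and 65 genes in MAT, SV and the interaction. Without Kdm5c+/- MAT number 3, limma called 3 genes in MAT and 7 for the interaction. Idi1 was not tested in SV under the filter of a mean of at least 5 CPM.

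Signs of uncalled differences changed. Without the number 2 libraries, Cyp51 was at -0.047 and Insig1 at -0.14 in MAT. The interaction of Hmgcs1 was 0.0044 in limma, -0.0046 with quantile scaling and -0.011 with edgeR. Leaving out each library in turn gave, in MAT, -0.20 to 0.38 for Cyp51, -0.47 to 0.36 for Insig1 and -0.50 to 0.025 for Fdft1. In SV it gave -0.16 to 0.26 for Idi1, -0.41 to 0.020 for Hmgcs1, -0.35 to 0.17 for Sqle and -0.52 to 0.027 for Cyp51. For the interaction it gave -0.25 to 0.22 for Hmgcs1, -0.20 to 0.43 for Fdft1, -0.25 to 0.58 for Insig1, -0.20 to 0.13 for Srebf2 and -0.42 to 0.0026 for Idi1. The cause of these changes was not tested. With 3 libraries a group, the 95% intervals of the genotype differences spanned 0 for all 7 genes, and a p that misses the threshold does not show equal levels. The lowest single level was 1.65 CPM, for Idi1, where 3 reads come to 0.102 to 0.137 CPM, and what depth contributed to the spread was not tested.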
